A study of Homo sapiens with 4 samples.

Results

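RNA-seq of SKOV3, a human ovarian carcinoma cell line, was examined for 42 genes of the actomyosin cytoskeleton and of its control by serum response factor, out of 19475 gene symbols in the deposited table. The genes were taken from a list of symbols that covers actins, filament crosslinkers, calponins, tropomyosins, myosin II subunits, adhesion plaque proteins, actin turnover factors, formins, kinases and the transcriptional regulators SRF, MKL1 and MKL2. Where a symbol had several transcripts, the one most abundant on average over the 4 libraries stood for it. FPKM relates the tags of a transcript to its length and to all tags of the library. The measured levels are therefore shares of each library and not amounts per cell. The 2 TCP libraries came from cells on an ordinary tissue culture plate and are labelled day 0, and the 2 polymer X libraries came from tumor spheroids on a plate coated with that polymer film at day 8. Substrate, time and growth as a sheet or as spheroids changed together between the groups and cannot be told apart. The labels describe serum replacement medium for every library, whereas the methods give fetal bovine serum for routine growth of the line, so a difference in medium cannot be told apart from the substrate either. Replicates are numbered within each group and nothing in the labels says that they came from separate cultures. The p-values therefore rest on the spread between these libraries, which may be technical and which the test partly shares across genes. The tags recovered from the step of the FPKM values numbered 38404000 and 44913000 in the TCP libraries and 40034000 and 40681000 in the polymer X libraries.

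Serum response factor binds a short DNA element, the CArG box, in front of many genes for actin and actin-binding proteins. Its coactivators MRTF-A and MRTF-B, listed here under the older symbols MKL1 and MKL2, are held in the cytoplasm by monomeric actin and enter the nucleus when cell spreading draws monomers into filaments. Cells that spread on a stiff plate build stress fibres from these products, in which non-muscle myosin II pulls on actin filaments coated with tropomyosin and crosslinked by alpha-actinin and filamin.

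The cell line label was checked against markers. Of 8 epithelial markers 2, KRT19 and CDH1, lay under an FPKM of 1 in all libraries, and the summed level of the 8 was 640.3 and 654 on TCP and 1258 and 1207 on polymer X. KRT8 was the most abundant on TCP, at 262 and 269, and ERBB2 on polymer X, at 913 and 860 against 198 and 206 on TCP. Without ERBB2 the sum was 442 and 448 on TCP and 344 and 347 on polymer X, and the keratins KRT7, KRT8 and KRT18 were lower at log2 fold changes of -0.76, -0.87 and -0.44, short of the fold threshold of 1 used below. ERBB2, PAX8 and EPCAM were called higher, EPCAM from a level under 1 on TCP. Markers of smooth and striated muscle were low, with 8 of 9 under an FPKM of 1 in each library, a sum of 5.43, 5.52, 3.45 and 3.20 in TCP replicates 1 and 2 and polymer X replicates 1 and 2, and smoothelin (SMTN) as the most abundant gene. MYOCD, the muscle-specific partner of SRF, was listed at 0 in 3 of the libraries and at 0.015 in the first TCP library. All 5 leukocyte markers lay under an FPKM of 1, with a sum of 0.243 and 0.167 on TCP and of 0.836 and 0.975 on polymer X. PTPRC was the most abundant of them on average, with 1 and 0 tags on TCP and 92 and 106 on polymer X. Fibroblast markers summed to 17.1 and 17.8 on TCP and to 86.7 and 76.6 on polymer X, with COL1A2 the most abundant. PDGFRA, PDGFRB and THY1 lay under 1 in all 4 libraries, with PDGFRA higher on polymer X, THY1 lower and PDGFRB overlapping between groups. Of the 5 fibroblast markers tested, COL1A2, COL3A1, DCN and LUM were called higher, and COL3A1, DCN and LUM passed the expression filter only through the polymer X libraries. COL1A1 went the other way, with 8.21 and 8.48 on TCP and 3.81 and 3.77 on polymer X (log2 fold change -0.96, adjusted p = 9.322e-07 with limma). The part of these markers in the results for the cytoskeletal genes was not tested. In bulk RNA, fewer cells that express a gene and less RNA per cell cannot be told apart.

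Most of the 42 genes were lower in the spheroids. Of the 42, 39 reached an FPKM of 1 in 2 or more libraries and entered the limma test on log2(FPKM + 1), together with all other genes past that filter. At an adjusted p under 0.05 and a log2 fold change of at least 1 in size, 11 of the 39 (28.2%) were called lower on polymer X, and 9.45% of all 11964 genes tested were called lower. Only ACTA2 was called higher (2.56% of the 39), against 10.7% of all genes tested. With no minimum on the fold change, 34 of the 39 (87.2%) were lower and 3 (7.69%) were higher, whereas 43.6% of all genes were lower and 37.4% were higher. Both polymer X libraries lay below both TCP libraries for 35 of the 39 (89.7%), compared with 48.4% of all genes tested.

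**Figure D1:**
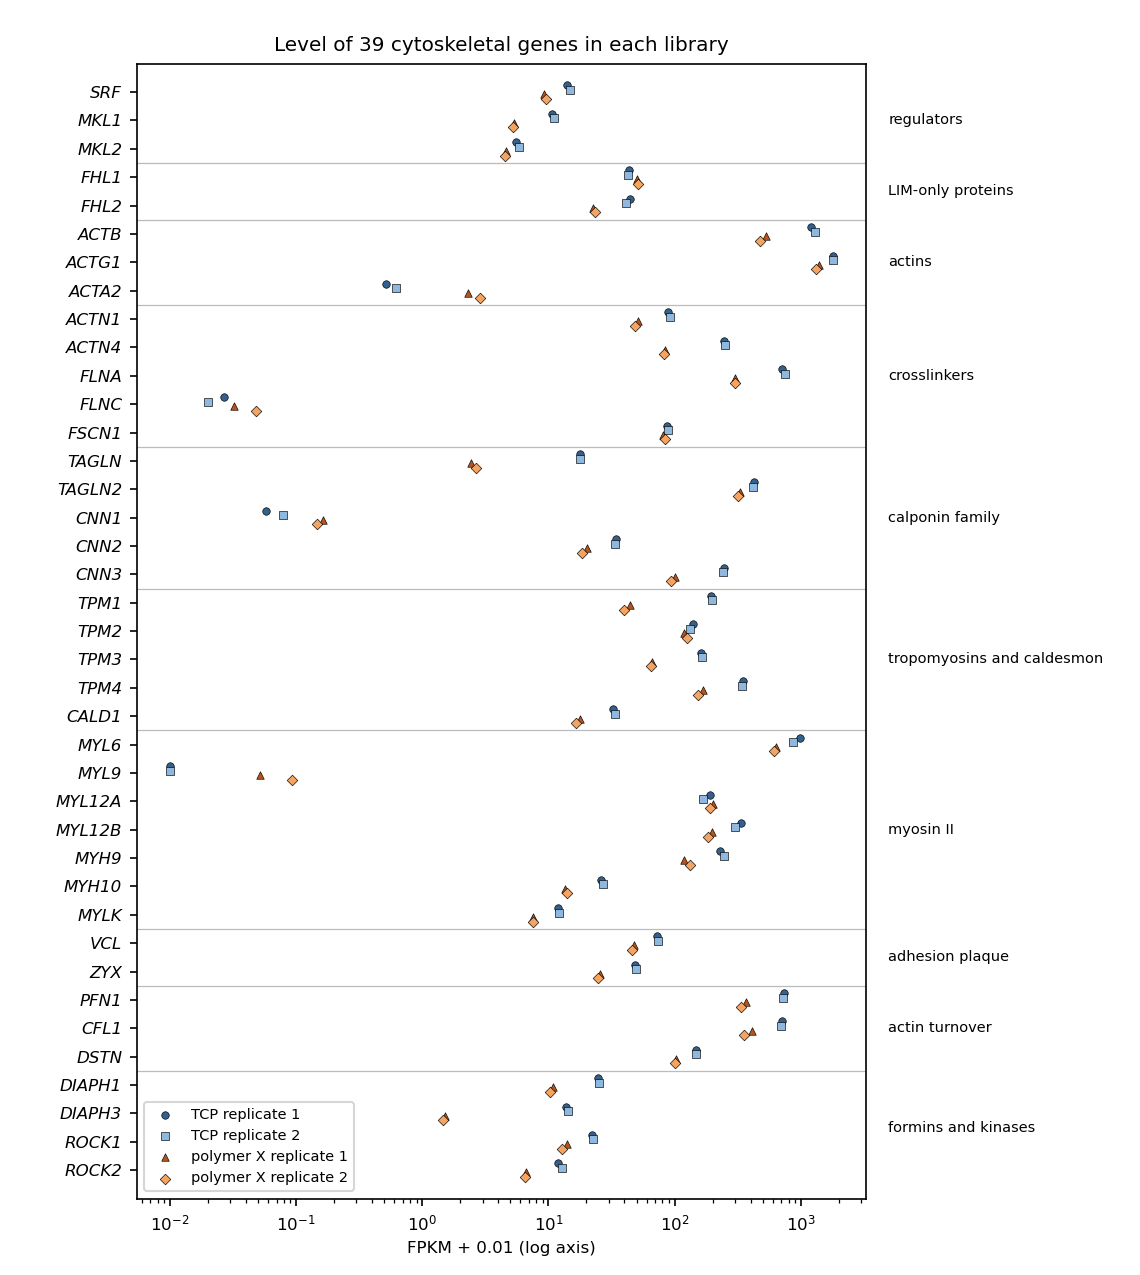
FPKM of 39 of the 42 genes in each of the 4 libraries, with 0.01 added for the log axis and the genes grouped by role. Circles and squares are the TCP libraries, triangles and diamonds the polymer X libraries, and replicates lie close together in all genes above an FPKM of 1, with the polymer X symbols to the left for most of them.

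For the 39 genes the log2 fold changes had a median of -0.81, and for all genes tested it was -0.06. Taken separately, the first polymer X library had a median difference of -0.78 from the TCP mean and the other -0.85. Abundance moved with this result, since abundant genes as a class were lower in the spheroid libraries. Among all 422 genes that averaged an FPKM of 100 or more, the median was -0.51 and 94 (22.3%) were called lower, and among the 19 cytoskeletal genes at that level the median was -0.88 and 8 (42.1%) were called lower. From an average FPKM of 10 upward the medians were -0.29 for 5514 genes and -0.84 for 33 of the cytoskeletal genes. The part of abundance in the result was not tested. The size depended on the scaling of the libraries, and with quantile normalization the median of the 39 became -0.57, with 32 of them lower and 6 higher at an adjusted p under 0.05, and with 6 called lower. FLNA, CNN3, TPM3, TPM4 and PFN1 then fell short of the fold change threshold at log2 fold changes from -0.98 to -0.78. On that scaling the 422 abundant genes had a median of -0.19 with 48 called lower, and the 19 abundant cytoskeletal genes a median of -0.59 with 3 called lower.

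Counts were similar for the 20 genes commonly given as SRF targets and for the other 22, which may hold further targets. Of the 18 targets tested, 16 were lower with no fold minimum and 5 were called lower, at a median log2 fold change of -0.86. Of the 21 others tested, 18 were lower and 6 were called lower, at a median of -0.81. No test of the difference between these sets was made.

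**Figure D2:**
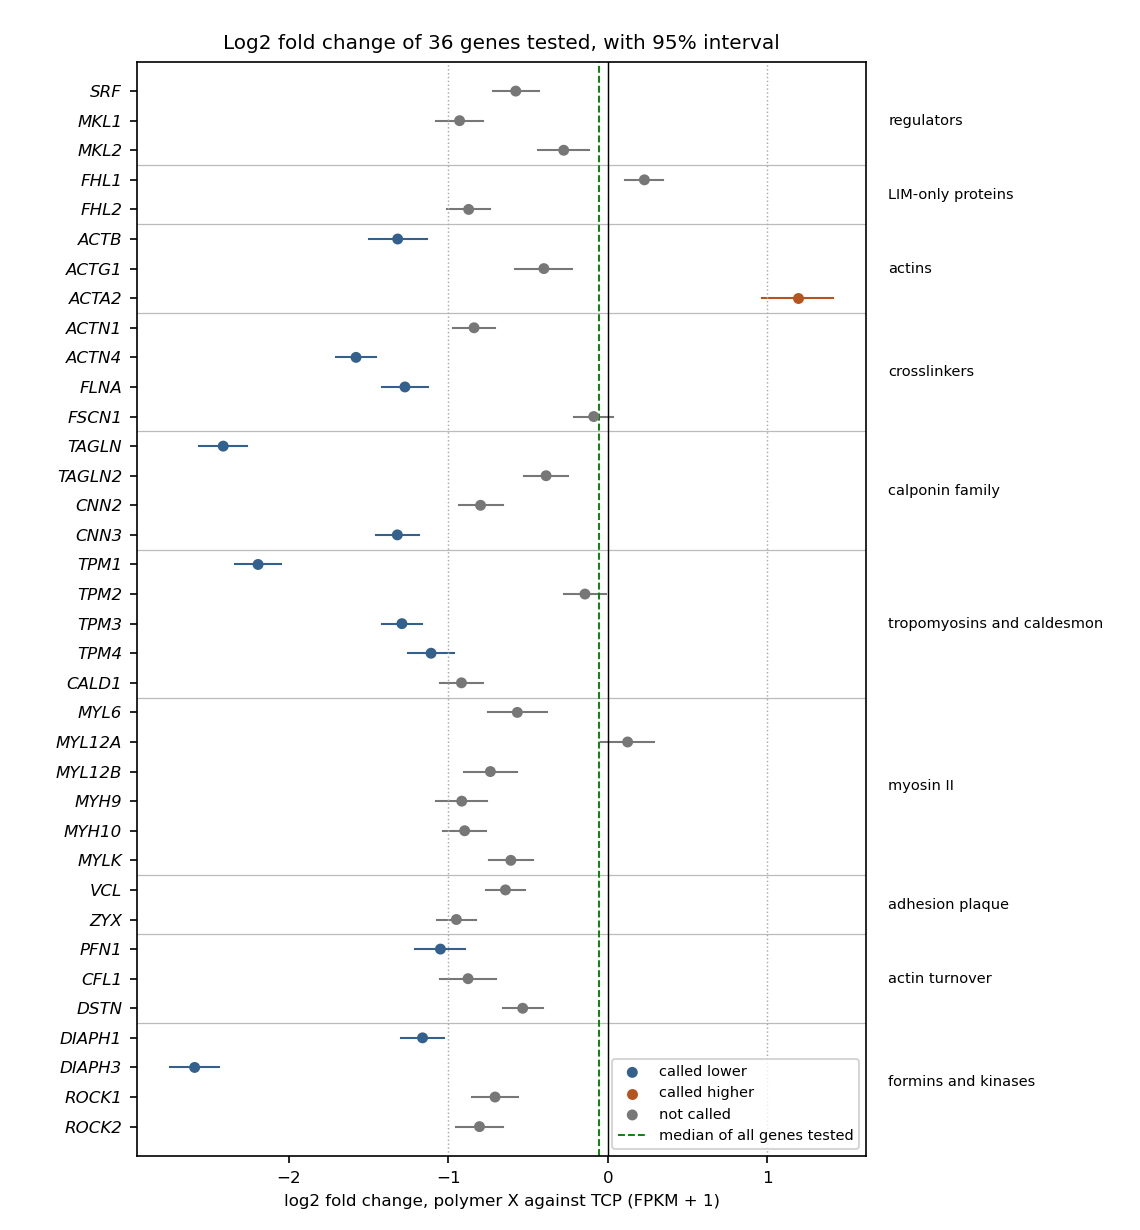
Log2 fold change of polymer X against TCP on log2(FPKM + 1) for 36 of the 39 genes tested, with bars for the 95% interval from limma and dotted lines at the threshold of 1 in either direction. Intervals of all but 4 genes (FHL1, ACTA2, FSCN1 and MYL12A) lie wholly below 0, and the dashed line marks the median of all genes tested, -0.06.

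Promoter sequence was available for 38 of the 42 genes in a RefSeq table of windows of 300 bases on GRCh38.p14, from 250 before to 50 after each annotated start. ACTB, TAGLN, MYL9 and FSCN1 had no entry. A CArG box in its strict form, which reads the same on both strands, was found in a window of 10 of the 38 genes (26.3%), against 438 of all 27305 genes in the table (1.6%) and 1.52% of those that passed the expression filter. Counted by window, it lay in 12 of 81 windows of these genes (14.8%) and in 454 of all 35116 (1.29%). Windows of one gene can overlap and share a match, and genes known as SRF targets were chosen for the set, 9 of the 10 being among them, so that the shares are a description. Windows were matched by gene and not by transcript. The log2 differences of the transcripts of a gene with a box spanned at most 0.06, except in MYLK. The stretches below, written 5′ to 3′ on the strand of the gene with the CArG box in capitals, are shown because this is the element SRF is known to bind. SRF itself has a pair of boxes, 30 and 10 bases before its start, at chr6:43171219-43171288 on the + strand. FLNA (chrX:154374699-154374748, - strand) and TPM4 (chr19:16067345-16067394, + strand) are the genes with a box that were called lower. The TPM4 box lies at the upstream start, that of the less abundant of its transcripts (log2 difference -1.09), and not at that of the one that stands for TPM4 (-1.11). ACTG1 (chr17:81512864-81512913, - strand) and CNN2 (chr19:1026499-1026548, + strand) were lower without reaching the fold threshold, and FHL1 (chrX:136196901-136196950, + strand) was higher. The FHL1 box is in 1 of 12 windows, 14312 bases from the far end of the gene, while the transcript that stands for FHL1 starts 14605 bases from it, nearest to a window at 14570 without a box. The only MYLK window (box stretch at chr3:123620613-123620662, - strand) is at a start inside the gene, 10499 bases from its far end. In the deposited table the short transcripts that encode telokin start 8311 bases from that end and the long ones 272006 bases from it. The window is nearer to the start of the short transcripts, whose log2 differences were -0.06, than to that of the long one that stands for MYLK (-0.61). By these distances it coincides with neither start. The far ends come from different annotations and need not be the same base, so the box could not be assigned to a transcript.
SRF: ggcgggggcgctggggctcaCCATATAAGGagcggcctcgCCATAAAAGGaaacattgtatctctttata
FLNA: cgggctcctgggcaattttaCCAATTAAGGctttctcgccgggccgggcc
TPM4: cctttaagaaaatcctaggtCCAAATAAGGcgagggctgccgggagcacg
ACTG1: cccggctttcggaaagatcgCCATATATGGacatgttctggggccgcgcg
CNN2: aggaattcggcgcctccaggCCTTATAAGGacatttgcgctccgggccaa
MYLK: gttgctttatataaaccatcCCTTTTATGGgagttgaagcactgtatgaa
FHL1: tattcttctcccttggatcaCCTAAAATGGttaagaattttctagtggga

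The boxes of FLNA, ACTG1 and MYLK each began 94 bases before the annotated start, for MYLK the internal one, that of CNN2 89 bases before it, that of FHL1 126 and that of TPM4 173 bases before it. The remaining matches were in FHL2, with boxes 59 and 101 bases before different starts, in ROCK2 at 73 bases and in ACTN1 at 171 bases. The ACTN1 box belongs to a start 103438 bases from the far end, and all 3 ACTN1 transcripts in the deposited table start 105243 bases from it, nearest to a window at 105174 without a box. The 10 genes with a box in any window had a median log2 fold change of -0.80, and 2 were called lower. Of the 10 genes, ACTN1, FHL1, MYLK and TPM4 entered by a transcript with another start than that of the box, and the starts of FHL2 and CNN2 could not be matched. The transcript that stands for CNN2 starts 12793 bases from the far end, and the only CNN2 window, with the box, is at 12457. Of the 28 genes with windows and no box, 26 were tested, with a median of -0.84 and 7 (26.9%) called lower. A window without a match says only that these letters are absent from it.

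**Figure D3:**
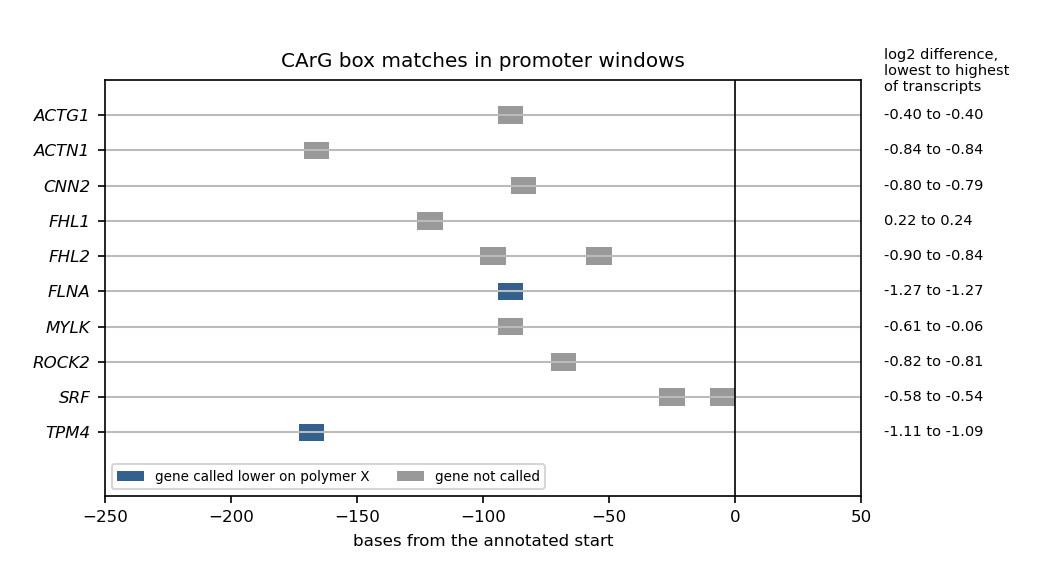
Position of each CArG box match in the promoter windows of 10 genes, in bases from the annotated start, with the lowest and highest log2 difference among the transcripts of the gene at the right. Bars are drawn to the length of the box, and the matches lie between 173 and 10 bases before the start, with the boxes of FLNA and TPM4, the genes called lower, in blue and MYLK alone spanning unlike values, -0.61 to -0.06.

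Other promoter motifs were searched on both strands of the same windows. The MCAT element CATTCC, known as a site for TEAD factors, was found in 16 of the 38 genes (42.1%) in 16.7% of all genes in the table and in 14.9% of those that passed the expression filter, or in 21%, 14% and 11.3% of windows. The GC box GGGCGG, known as a site for SP1, was found in 37 of the 38 genes (97.4%), MYLK with its internal window being the gene without it, in 48.3% of all genes and in 77.8% of those that passed the expression filter. By window the GC box was present in 60.5% for these genes, in 45% of all windows and in 66.7% of the windows of genes that passed the expression filter. Genes with several starts have more windows in which a match can occur, which raises their share.

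Among the regulators, SRF had an FPKM of 14.04 and 14.9 on TCP and of 9.16 and 9.57 on polymer X. Its level in the spheroids was 64.7% of that on TCP, and limma gave a log2 fold change of -0.58 (SE 0.06, adjusted p = 2.165e-05). MKL1 stood at 10.7 and 11.1 on TCP and at 5.32 and 5.18 on polymer X, and the log2 fold change was -0.93 (SE 0.06, adjusted p = 9.364e-07). MKL1 was below the fold threshold, which it passed at -1.04 with a pseudocount of 0.1 and at -1.03 with the sum of all transcripts. MKL2 differed least, with 5.51 and 5.88 on TCP and 4.57 and 4.48 on polymer X and a log2 fold change of -0.28 (SE 0.07, adjusted p = 0.0048). In all 3 the polymer X libraries lay below the TCP libraries, as they did for 48.4% of all genes tested. The ratio of MKL1 to MKL2 was 1.94 and 1.89 on TCP and 1.17 and 1.16 on polymer X.

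The actins moved in different degrees and directions. ACTB, which encodes the beta-actin of the cell cortex and stress fibres, had an FPKM of 1207 and 1284 on TCP and of 527 and 472 on polymer X. The groups were far apart, and the log2 fold change was -1.32 (SE 0.08, adjusted p = 4.096e-07 with limma). ACTG1, the other cytoplasmic actin, had 1789 and 1807 on TCP and 1393 and 1329 on polymer X, with a log2 fold change of -0.40 (SE 0.08, adjusted p = 0.0011). The ratio of ACTB to ACTG1 therefore was 0.675 and 0.711 in the TCP libraries and 0.378 and 0.355 in the polymer X libraries. By mean FPKM, ACTG1 ranked 5th of all symbols on TCP and 11th on polymer X, and ACTB 12th and 43rd. Coding sequences of these actins are close to identical and both have processed pseudogenes, so tags shared between them are uncertain.

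ACTA2, the actin of smooth muscle and myofibroblasts, was the gene called higher, from a low level. Its FPKM was 0.505 and 0.609 on TCP and 2.28 and 2.85 on polymer X, which corresponds to 34 and 48 tags against 160 and 203. The log2 fold change was 1.19 (SE 0.10, adjusted p = 3.052e-06 with limma), and ACTA2 passed the expression filter only through the polymer X libraries, so that it could enter the test only with a difference. With quantile normalization the log2 fold change was 0.79, and with a minimum mean FPKM of 5 it was not tested. Counting did not use strand, and the longer ACTA2 transcripts overlap FAS on the opposite strand, where exons of both genes share 380 bases in GENCODE 29, and ACTA2-AS1 over 516 exon bases. In that annotation 21 of the 42 genes share exon bases with a gene on the opposite strand, by the most in TPM1 with TPM1-AS (2070 bases) and in VCL with AP3M1 (1109 bases), so that tags there are uncertain. FAS was also called higher, with 1.16 and 1.26 on TCP and 4.49 and 3.85 on polymer X. The shorter ACTA2 transcript, whose span ends before FAS begins, had 0.506 and 0.401 on TCP and 1.99 and 2.46 on polymer X. The level on polymer X remained far below that of ACTB and ACTG1 in the same libraries, and ACTA1, ACTC1 and ACTG2, the other muscle actins, did not exceed 0.21 in any library.

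Of the crosslinkers of actin filaments, ACTN4 and FLNA were called lower and ACTN1 and FSCN1 were not called. ACTN4, a non-muscle alpha-actinin, had an FPKM of 248 and 252 on TCP and of 83.2 and 82.8 on polymer X. Its level in the spheroids was 33.2% of that on TCP, with a log2 fold change of -1.58 (SE 0.05, adjusted p = 1.17e-08). ACTN1, the related alpha-actinin of focal adhesions and stress fibres, had 87.9 and 91.5 on TCP and 51.0 and 48.3 on polymer X, with a log2 fold change of -0.84. The difference was larger in ACTN4, the ratio of ACTN4 to ACTN1 being 2.82 and 2.76 on TCP and 1.63 and 1.71 on polymer X. The end of ACTN4 overlaps CAPN12 on the opposite strand over 341 bases of the spans in the deposited table, and exons of the 2 genes share 868 bases in GENCODE 29. CAPN12 was listed at 16.0 and 14.99 on TCP and at 7.20 and 7.71 on polymer X.

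FLNA, which crosslinks filaments into networks and ties them to integrins, had 713 and 748 on TCP and 302 and 301 on polymer X. The log2 fold change was -1.27 (SE 0.06, adjusted p = 1.204e-07 with limma), and -0.98 with quantile normalization. FLNC, the filamin of muscle, lay between 0.01 and 0.038 in all libraries, or 4 to 14 tags, with the polymer X libraries the higher ones, and was not tested. FSCN1, the bundling protein of filopodia, was nearly level at 87.5 and 88.9 on TCP and 81.6 and 84.2 on polymer X. Its log2 fold change of -0.09 (95% interval -0.21 to 0.03) did not pass the test (adjusted p = 0.15). With quantile normalization it was higher and passed (log2 fold change 0.23, adjusted p = 0.0053), the adjusted p of all alternatives running from 0.0053 to 0.42.

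In the calponin family, TAGLN had the second largest fall of all 42 genes. TAGLN encodes transgelin, an actin-binding protein of smooth muscle and of spread fibroblasts, and its FPKM was 17.8 and 17.9 on TCP and 2.44 and 2.63 on polymer X. The level in the spheroids was 14.2% of that on TCP, a 7.03-fold difference of the means and a log2 fold change of -2.41 (SE 0.07, adjusted p = 3.82e-09). The end of the annotated TAGLN transcript overlaps PCSK7 on the opposite strand over 2395 bases of its span, with 446 exon bases shared in GENCODE 29, and PCSK7 stood at 6.96 and 7.503 on TCP and at 3.99 and 4.03 on polymer X. Tags of the shared exons could not be assigned to either gene. TAGLN2, the widely expressed relative, was much more abundant at 426 and 420.4 on TCP and 329 and 317 on polymer X, with a log2 fold change of -0.39. The ratio of TAGLN2 to TAGLN accordingly was 24.0 and 23.5 on TCP and 135 and 120.5 on polymer X.

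The calponins that passed the expression filter, CNN3 and CNN2, were both lower in the spheroids. CNN3, the acidic calponin, had an FPKM of 245 and 240.3 on TCP and of 100.03 and 93.0 on polymer X. The groups did not overlap, and the log2 fold change was -1.32 (SE 0.06, adjusted p = 6.277e-08) and -0.98 with quantile normalization. CNN2, a calponin of non-muscle cells whose CArG box is printed above, had 34.4 and 33.8 on TCP and 20.03 and 18.4 on polymer X, with a log2 fold change of -0.80. CNN1, the calponin of differentiated smooth muscle, was listed at 0.048 and 0.069 on TCP and at 0.154 and 0.136 on polymer X, higher there but from 3 to 10 tags in each library, and was not tested.

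Tropomyosins, which lie along actin filaments and set which motors and severing proteins reach them, changed in their balance. TPM1 had an FPKM of 194 and 196 on TCP and of 44.1 and 39.8 on polymer X. This was 21.5% of the TCP level, with a log2 fold change of -2.19 (SE 0.06, adjusted p = 4.883e-09), and the log2 differences of the 12 TPM1 transcripts in the table ran from -2.22 to -2.10. TPM3 had 160.5 and 164 on TCP and 66.7 and 64.6 on polymer X, with a log2 fold change of -1.29 (SE 0.05, adjusted p = 3.993e-08). TPM4 was the most abundant tropomyosin in every library, at 350.4 and 344 on TCP and 167 and 154 on polymer X, with a log2 fold change of -1.11 (SE 0.06, adjusted p = 2.791e-07). With quantile normalization TPM3 and TPM4 were below the fold threshold, at -0.95 and -0.78.

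TPM2 stood apart from its relatives. Its FPKM was 139 and 133 on TCP and 119 and 126 on polymer X, and the log2 fold change of -0.14 (SE 0.06, adjusted p = 0.0454) turned to 0.20 with quantile normalization, where it passed as higher (adjusted p = 0.0108). Over the alternatives its adjusted p ran from 0.0108 to 0.19. As a share of the summed tropomyosin FPKM, TPM1 made up 23.0% and 23.4% on TCP and 11.1% and 10.3% on polymer X. TPM2 made up 16.4% and 15.9% on TCP and 30.04% and 32.8% on polymer X. The share of TPM4 was between 40.03% and 42.1% in each of the 4 libraries and that of TPM3 between 16.8% and 19.6%. CALD1, the caldesmon that binds tropomyosin-coated filaments and restrains myosin, had 32.7 and 33.5 on TCP and 17.7 and 16.4 on polymer X, with a log2 fold change of -0.92.

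**Figure D4:**
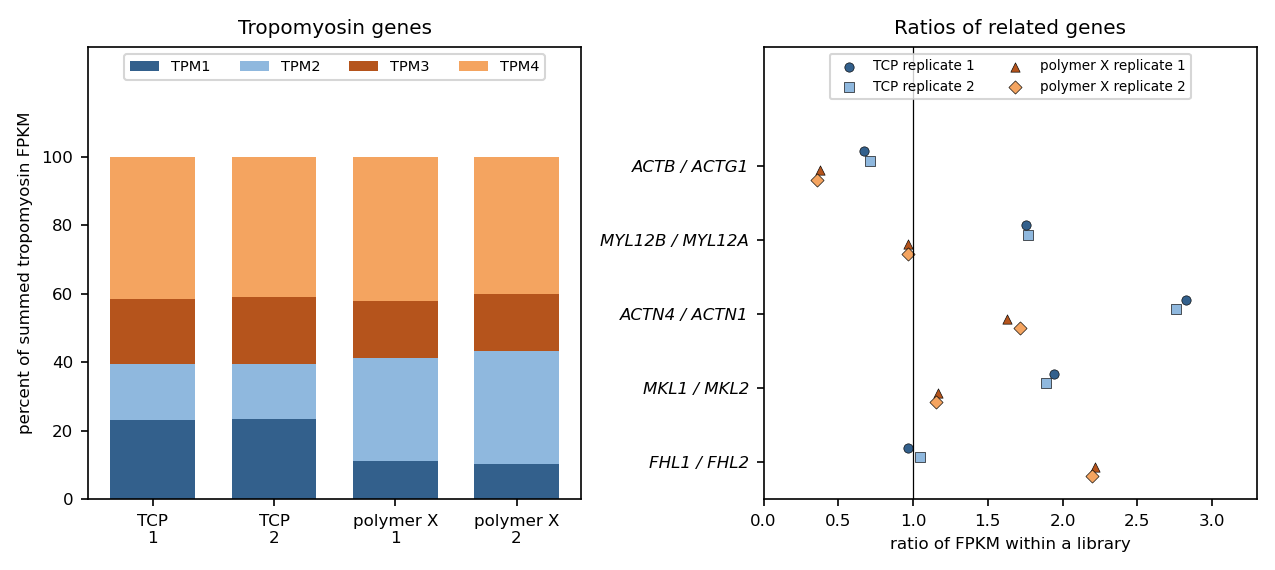
Left, stacked bars of the share of each tropomyosin gene in the summed tropomyosin FPKM of each library, in percent, in which TPM2 takes 16.4% and 15.9% on TCP and 30.04% and 32.8% on polymer X. Right, ratios of the FPKM of related genes within each of the 4 libraries on a linear axis, in which the TCP and polymer X symbols are apart for all 5 pairs.

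No subunit of myosin II was called at the fold threshold in limma, although 4 of the 5 tested had lower levels with an adjusted p under 0.05, and the same number with an unadjusted p under 0.05. MYH9, the heavy chain of non-muscle myosin IIA, had an FPKM of 231 and 247 on TCP and of 119 and 133 on polymer X. MYH10, the heavy chain of myosin IIB, had 25.9 and 27.3 on TCP and 13.5 and 14.03 on polymer X. Their log2 fold changes were alike, -0.92 and -0.90, and the ratio of MYH9 to MYH10 stayed between 8.82 and 9.48 in all 4 libraries. MYL6, the essential light chain, was the most abundant subunit at 987 and 867.8 on TCP and 635 and 613 on polymer X, with a log2 fold change of -0.57.

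The regulatory light chains of myosin II, which carry the activating phosphorylation, did not move together. MYL12B had 336 and 298 on TCP and 196 and 183 on polymer X, with a log2 fold change of -0.74 (SE 0.07, adjusted p = 1.173e-05). MYL12A had 191 and 169 on TCP and 203 and 189 on polymer X, so that its groups overlapped, and its log2 fold change of 0.12 (95% interval -0.04 to 0.29) did not pass the test (adjusted p = 0.15). With quantile normalization it was 0.47 and passed (adjusted p = 9.351e-05), the adjusted p of all alternatives running from 9.351e-05 to 0.71. The ratio of MYL12B to MYL12A was 1.76 and 1.77 on TCP and 0.969 and 0.967 on polymer X. The coding sequences of this pair are nearly the same, and how tags that match both were assigned is not given in the sources used here. MYL9, the regulatory light chain of smooth muscle and of contractile stromal cells, was listed at 0 in both TCP libraries and at 0.042 and 0.083 on polymer X, which is 2 and 4 tags.

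MYLK, the kinase that phosphorylates the regulatory light chains, had an FPKM of 11.8 and 12.2 on TCP and of 7.48 and 7.57 on polymer X, with a log2 fold change of -0.61 (SE 0.06, adjusted p = 1.258e-05). Its transcripts were not uniform. The 5 long transcripts had log2 differences of -0.61 to -0.60, whereas a pair of short transcripts from the end of the gene, which encode the non-catalytic protein telokin, had differences of -0.06. The first of these short transcripts was listed at 8.64 and 8.97 on TCP and at 8.80 and 8.00 on polymer X. Since the short transcripts lie within the long ones, their values include tags of both.

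The adhesion plaque genes were lower without passing the fold threshold. VCL encodes vinculin, which links talin to actin, and had an FPKM of 72.7 and 73.3 on TCP and of 47.2 and 45.6 on polymer X. The log2 fold change of VCL was -0.64 (SE 0.05, adjusted p = 3.241e-06 with limma), and -0.32 with quantile normalization. ZYX encodes zyxin, which gathers on strained stress fibres, and had 48.6 and 49.6 on TCP and 25.4 and 24.5 on polymer X. Its log2 fold change of -0.95 (SE 0.05, adjusted p = 2.815e-07) was the nearest to the threshold among the genes that did not reach it.

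The LIM-only proteins, which bind actin and transcription factors, went in opposite directions. FHL2 had an FPKM of 44.6 and 41.1 on TCP and of 22.7 and 23.2 on polymer X, with a log2 fold change of -0.87. FHL1 had 43.1 and 42.9 on TCP and 50.2 and 50.9 on polymer X, with a log2 fold change of 0.23 (SE 0.05, adjusted p = 0.0028) and of 0.54 with quantile normalization. The ratio of FHL1 to FHL2 was 0.966 and 1.05 on TCP and 2.22 and 2.20 on polymer X. Both genes have a CArG box in a promoter window, with the limits on their starts given above.

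Genes of actin turnover were lower as well. PFN1, the profilin that delivers actin monomers to growing filament ends, had an FPKM of 741 and 719.7 on TCP and of 366 and 338 on polymer X. The log2 fold change was -1.05 (SE 0.07, adjusted p = 6.83e-07), close to the threshold, and it was -0.99 without polymer X replicate 2 and -0.81 with quantile normalization. CFL1, the cofilin that severs filaments, had 705 and 701 on TCP and 409 and 357 on polymer X, with a log2 fold change of -0.88. DSTN, the related depolymerizing factor destrin, had 147 and 148 on TCP and 103 and 99.8 on polymer X. Its log2 fold change was -0.53, and -0.20 with quantile normalization. CFL1 and PFN1 have processed pseudogenes, and the treatment of tags that match several places is not given in the sources used here.

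The formins of the set showed large differences. DIAPH3, a formin that elongates filaments at filopodia and in the cleavage furrow, had an FPKM of 13.7 and 14.2 on TCP and of 1.51 and 1.45 on polymer X. The level in the spheroids was 10.6% of that on TCP, from 1861 and 2253 tags to 213 and 209, and the log2 fold change of -2.59 (SE 0.07, adjusted p = 3.055e-09) was the largest in size among the 39 genes. DIAPH1, a formin that assembles stress fibres, had 24.6 and 25.3 on TCP and 10.9 and 10.3 on polymer X. Its log2 fold change was -1.16 (SE 0.06, adjusted p = 1.257e-07), and the ratio of DIAPH1 to DIAPH3 was 1.79 in each TCP library and 7.22 and 7.12 on polymer X.

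The kinases ROCK1 and ROCK2, which act on myosin phosphatase and on LIM kinase, differed less. ROCK1 had an FPKM of 22.2 and 22.7 on TCP and of 14.02 and 12.7 on polymer X, and ROCK2 had 11.9 and 12.7 on TCP and 6.67 and 6.53 on polymer X. Their log2 fold changes were -0.71 and -0.81. In both genes the polymer X libraries lay below the TCP libraries, as they did for 48.4% of all genes tested.

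Together the 42 genes made up 3.15% and 3.24% of the summed FPKM of all symbols on TCP and 2.13% and 2.07% on polymer X. The actins alone made up 0.955% and 1.02% on TCP and 0.692% and 0.664% on polymer X. Tropomyosins and caldesmon went from 0.279% and 0.287% to 0.149% and 0.148%, and myosin II subunits from 0.564% and 0.531% to 0.42% and 0.417%. Each of the roles had a smaller share in both polymer X libraries than in either TCP library, by the least in the LIM-only proteins, with 0.0279% and 0.0277% on TCP and 0.0262% and 0.0273% on polymer X.

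Other genes of the cytoskeleton were described from 11 lists, which hold 286 genes besides the 42. Of these, 238 were tested, 24 (10.1%) were called higher and 24 (10.1%) lower, with a median log2 fold change of -0.13. Among all genes tested 10.7% were called higher and 9.45% lower, with a median of -0.06. These shares are the background for each list below. With no fold minimum 80 (33.6%) were higher and 118 (49.6%) lower, against 37.4% and 43.6% of all genes tested. With a mean FPKM of at least 5 the counts were 10 higher and 21 lower of 185 tested. Of the 24 called higher, 8 were under an FPKM of 1 in both TCP libraries and passed the expression filter only through polymer X, and 2 of the 24 called lower passed it only through TCP. Such genes could enter the test only with a difference, and each one named below is marked as filtered on 1 group. Among all genes tested this held for 409 of the 1285 called higher and 62 of the 1131 called lower.

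**Figure D5:**
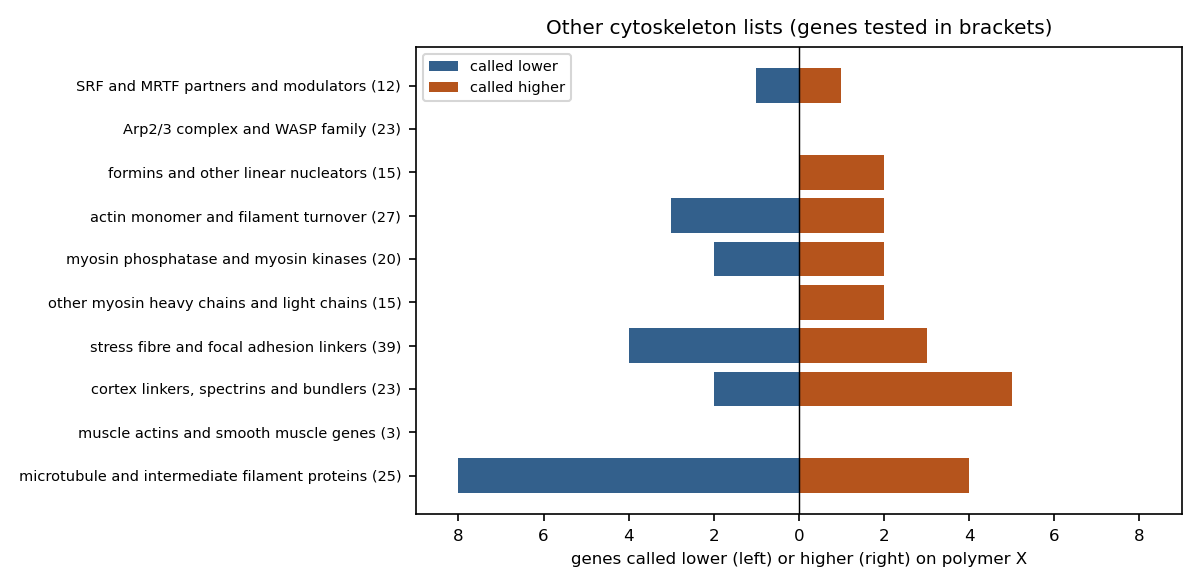
Number of genes called lower (bars to the left) and higher (bars to the right) on polymer X in each of 10 of the 11 other cytoskeleton lists, with the number of genes tested in brackets. The list of microtubule and intermediate filament proteins has the most genes called lower, 8 of 25, and that of cortex linkers, spectrins and bundlers the most called higher, 5 of 23, of which 1 passed the filter only through polymer X. Of all genes tested, 9.45% were called lower and 10.7% higher.

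Among 12 tested partners and modulators of SRF and MRTF, 1 was called in each direction and the median was 0.02. The number called higher was 3 with quantile normalization and 2 with a pseudocount of 0.1 or the sum of transcripts. MICAL2, an enzyme that oxidizes nuclear actin and thereby frees MRTF-A, fell from a mean FPKM of 42.4 to 16.6 (log2 fold change -1.30). HDAC5, a class IIa histone deacetylase, rose from 1.92 to 10.6 (1.98). The ternary complex factors ELK1 and ELK3, which partner SRF at growth factor response genes, had log2 fold changes of 0.03 and 0.00 with adjusted p of 0.68 and 0.95 in limma. ELK4, of the same family, was at 8.17 and 8.82 on TCP and at 10.8 and 10.49 on polymer X (log2 fold change 0.30, adjusted p = 0.0023). The transcripts of ELK4 went both ways, with log2 differences from -0.45 to 0.30, and those of ELK3 ran from 0.00 to 0.20.

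Other nucleators of actin filaments were taken from 2 lists. Of 23 tested genes of the Arp2/3 complex and the WASP family, limma called 0 in either direction, while 12 were lower and 4 higher at an adjusted p under 0.05 and 12 and 4 at an unadjusted p under 0.05, with a median of -0.37. ACTR3, a core subunit that mimics an actin monomer, came closest at a mean FPKM of 48.6 on TCP and 24.0 on polymer X (log2 fold change -0.99). Without TCP replicate 2, and likewise without polymer X replicate 1, 2 genes of this list were called lower. Of 15 other formins and linear nucleators, limma called 2 higher and 0 lower, with 8 higher and 4 lower at an adjusted p under 0.05 and 8 and 4 at an unadjusted p under 0.05, and with a median of 0.24. The 2 were FMNL1, a formin best known from blood cells, from 11.98 and 12.02 in the TCP libraries to 31.2 and 32.6 (log2 fold change 1.34), and EVL, an Ena/VASP protein, from 10.6 to 24.8 (1.15).

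In the list of actin monomer and filament turnover, 27 genes were tested, 3 were called lower and 2 higher, with a median of -0.26. With quantile normalization limma called 0 of them lower. WDR1, the cofactor of cofilin, fell from a mean FPKM of 96.3 to 41.6 (log2 fold change -1.19). CORO1C, a coronin, fell from 94.6 to 41.7 (-1.16), and TWF1, the monomer-binding twinfilin, from 57.6 to 27.4 (-1.05). GSN, the calcium-dependent severing protein gelsolin, rose from 17.7 to 80.8 (2.13), and TMOD1, which caps pointed ends, from 6.48 to 15.2 (1.11).

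Among myosin phosphatase subunits and myosin kinases, 20 were tested, with 2 called in each direction and a median of -0.23. Those called higher were 0 with quantile normalization or a mean FPKM of at least 5, and 1 without polymer X replicate 1. DAPK1, a death-associated kinase that can phosphorylate the regulatory light chain, fell from a mean FPKM of 33.1 to 9.63 (log2 fold change -1.68), and CIT, the citron kinase of the cleavage furrow, from 14.4 to 5.15 (-1.32). PPP1R14C, an inhibitor of protein phosphatase 1, rose from 2.51 to 6.43 (1.08), and DAPK2, filtered on polymer X alone, had 0.698 and 2.59 (1.08). Of 15 other myosin heavy and light chains tested, limma called 2 higher and 0 lower, with 7 higher and 6 lower at an adjusted p under 0.05 and 7 and 6 at an unadjusted p under 0.05, and with a median of 0.25. Those called were MYO1D, a membrane-bound class I myosin, from 10.3 to 25.1 (1.20), and MYO15B, filtered on polymer X alone, with 0.0795 and 1.76 (1.35).

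Stress fibre and focal adhesion linkers had 39 genes tested, 4 called lower and 3 higher, with a median of 0.03, and 2 lower and 0 higher of 26 with a mean FPKM of at least 5 in limma. PALLD, the stress fibre scaffold palladin, fell from a mean FPKM of 41.8 to 14.4 (log2 fold change -1.47). NEXN, an actin-binding protein of muscle and adhesions, had 6.27 on TCP and 0.651 on polymer X (-2.14), and TLN2, a talin, 3.41 and 0.941 (-1.18), both filtered on TCP alone. TNS1, the adhesion protein tensin, rose from 1.21 to 4.91 (1.42). PDLIM4 and SORBS2, filtered on polymer X alone, had 0.028 and 0.258 on TCP and 1.33 and 1.80 on polymer X (1.18 and 1.16). Among 23 tested cortex linkers, spectrins and bundlers, 5 were called higher and 2 lower, with a median of -0.28, and with a mean FPKM of at least 5 the number called higher was 2 of 17. EZR, which encodes ezrin, the linker between membrane proteins and cortical actin, fell from 337 to 59.6 (-2.48), and EPB41L2 from 70.4 to 22.5 (-1.61). ACTN3, the alpha-actinin of fast muscle, rose from 1.31 to 8.53 (2.04), and MARCKSL1 from 3.57 to 11.9 (1.501). ESPN, the bundling protein espin, filtered on polymer X alone, had 0.0405 and 1.81 (1.43).

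Muscle actins and smooth muscle genes were mostly near 0, and of 13 genes 3 passed the expression filter. These were SMTN, SYNM and CRYAB, with log2 fold changes of -0.70, -0.17 and -0.88, and limma called 0 of them at the fold threshold, although all 3 were lower at an adjusted and at an unadjusted p under 0.05. Microtubule and intermediate filament proteins had a median of -0.81, the same to 2 decimals as that of the 39 genes tested, with 8 of 25 called lower and 4 higher. TUBA1B fell from a mean FPKM of 1544 to 282 (log2 fold change -2.45), LMNB2, a lamin, from 211 to 48.6 (-2.09), and TUBA1C from 646 to 161 (-2.00). TUBA1A rose from 89.4 to 233 (1.37) and MAPRE3, a microtubule end-binding protein, from 6.03 to 17.2 (1.37). STMN3, a stathmin, filtered on polymer X alone, had 0.642 and 4.28 (1.68). The alpha-tubulins thus differed in direction, and their coding sequences are nearly the same, so that shared tags are uncertain. For all list genes named with a rise or a fall or as filtered on 1 group, adjusted p in limma was at most 8.166e-06.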

How the data were processed

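The mRNA of 2 TCP and 2 polymer X libraries was sequenced by the authors. The deposited values are FPKM for each of 50078 RefSeq transcripts, made with HOMER on hg19 from exon tags on both strands and rounded to 3 decimals. The submitters' processing notes also name STAR 2.4.0 and DESeq. The labels describe a directional kit, but counting did not use strand. Other culture conditions named in the file header were not analysed here. Multiplied by transcript length, the FPKM values fall on multiples of a step that gives the tags of each library. A level of 3 tags, an FPKM of 0.0334 to 0.0391 for 2000 bases, was taken as the floor for counting error only.

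The filter kept genes that reached an FPKM of 1 in 2 or more libraries. On log2(FPKM + 1), limma 3.58.1 was run under R 4.3.3, using a mean-variance trend, no block and two-sided p-values adjusted by Benjamini-Hochberg over all 11964 genes. Fold changes on this scale understate those of low genes. Of the set, 39 genes are described by role, 3 genes and 1 of the other lists enter the counts but are not reported singly here, and of each other list the 3 genes called with the largest rise and the 3 with the largest fall are named. Cell type markers are also named, and FAS, CAPN12, PCSK7, ACTA2-AS1, TPM1-AS, AP3M1, ELK1, ELK3, ELK4, ACTR3, SYNM and CRYAB were chosen after their values were seen. The members and lists were chosen with earlier results of these data known. The alternatives were a pseudocount of 0.1, other filters, fold minimums, scalings, transcript choices, no trend, a replicate block and leaving out each library. Promoters came from RefSeq on GRCh38.p14 and exon overlaps from GENCODE 29, by gene symbol and without converting hg19 coordinates. Tables and figures were made with Python 3.11.15, pandas 2.3.3 and matplotlib 3.10.9.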

Additional observations from a re-analysis of the deposited data

How the results depend on the processing

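Most calls held under the alternatives run. Of the genes called lower in the set, all 11 were shared under no filter, a mean FPKM of at least 5, the common median, the replicate block, the longest transcript, no trend and the sum of transcripts or a pseudocount of 0.1, the last 2 giving 12 with MKL1. Quantile normalization gave 6 called lower, 0 higher and a median log2 fold change of -0.57, and reversed TPM2 (0.20) and FSCN1 (0.23), both then higher at an adjusted p under 0.05. Among genes lower but not called, it gave -0.20 for DSTN, -0.22 for TAGLN2, -0.32 for VCL, -0.42 for MYL12B, -0.51 for ACTN1 and -0.59 for MYH9. ACTG1 and MKL2 moved the other way, to -0.48 and -0.35. Leaving out each library in turn gave 10 to 11 lower, 1 higher each time and a median of -0.85 to -0.78, PFN1 being lost without polymer X replicate 2. In those fits the lone library is assumed to vary like the others. With no fold minimum 34 members were lower and 3 higher, and past a log2 fold change of 2 in size there were 3 and 0. A minimum mean FPKM of 5 left 0 called higher, since ACTA2 was not tested, and shifted the median of all genes to -0.20. For the genes of the other lists, no fold minimum gave 80 higher and 118 lower, a log2 fold change of at least 2 gave 3 and 6, and a mean FPKM of at least 5 gave 10 and 21 of 185 tested. The cause of the shift with quantile normalization was not tested.

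Libraries of the same number shared only that number, the correlation of their deviations being 0.09 with 2 pairs. With the replicate block, 11 members were called lower and 1 higher, at a median of -0.81, and 24 list genes were called in each direction. MYL9, CNN1 and FLNC were not tested because they lay under the filter, and with no filter all 42 genes were tested. Their 0 to 14 tags in a library limit the precision of their levels.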
